A study of Mus musculus with 4 samples.

Results

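The comparison set the brain of mouse embryos with neural tube defects (NTD brain) against the brain of control embryos (control brain) at embryonic day 9.5 (E9.5), across 11187 protein-coding genes. These are the genes with exons of at least 300 bases in all whose mean over the series' 4 libraries reached 1 FPKM, out of 28765 genes in the deposited table. FPKM is a level scaled to exon length and library total, so it can be set side by side between genes. The embryos were of the outbred CD-1 stock. Their parents were kept over 8 weeks on feed poor in folate, and in the NTD group the mothers received an intraperitoneal injection of methotrexate (MTX) at 1.5 mg/kg on E7.5, with the plug day counted as E0.5. The labels carry the same protocol for the control group and do not say whether control mothers ate that diet or were injected, nor whether 1 embryo or several made a library. The other 2 libraries, control spine and NTD spine, came from the same groups.

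There was 1 library per group. A difference between the brain libraries therefore has no replicate check, no test was run, and a difference between individual embryos, litters or dissections cannot be told apart from one between the conditions. The measure is the log2 ratio of (FPKM + 1), NTD minus control, which understates the change of genes near 1 FPKM. A fold compares recovered reads after division by each library's total, and the range after it is its 95% counting interval (exact Clopper-Pearson), which covers counting error only. The recovered totals were 16911677 reads in control brain and 16470311 in NTD brain, and 16272101 and 16605133 in the spine libraries, so 1 FPKM over a kilobase is 16.9 and 16.5 reads in the brain libraries. Where 2 values are given for a tissue, control comes first and NTD second.

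Folate carries the one-carbon units from which cells make purines, thymidylate and methyl groups, and methotrexate is a folate antagonist. The brain forms from a sheet of neuroepithelial progenitors that closes into a tube, and its first neurons leave the cell cycle under proneural transcription factors. The heart and the branchial arches lie directly beneath the head, and Hox genes are switched on in order from the hindbrain to the tail.

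The brain label was checked against regional markers. Otx2, a homeobox gene of the forebrain and midbrain, stood at 27.1 and 28.7 FPKM in brain, against 2.21 and 0.457 FPKM in spine. Sox2, a neural progenitor gene, stood at 80.6 and 72.2 FPKM in the brain libraries. Both brain libraries thus carried these genes at like levels. Xist, expressed from the inactive X chromosome of females, and the Y-linked Ddx3y were above 0 in both, at 18.2 and 15.2 FPKM for Xist and 3.42 and 4.25 FPKM for Ddx3y. Each brain library thus held RNA of both sexes, and the number of embryos behind it is not given.

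At 2-fold or more, 34 genes (0.304% of those compared) were higher in NTD brain and 7 (0.0626%) lower, 0.366% in all, and 98.1% of genes lay within 1.5-fold. The higher genes included 3 families: immediate early transcription factors led by Fosb, Fos and Egr1, contractile genes of heart muscle led by Myh6, Actc1 and Myl7, and trunk Hox genes led by Hoxb9. By list, 13 of the 34 were cardiac sarcomere genes, 4 trunk Hox genes, 3 immediate early genes and 3 somite and skeletal muscle genes. The 7 lower genes were Lypd8, Fcor, Tff3, Atoh1, Spaca6, Nxph4 and Katna1. By any amount, 4783 genes (42.8%) were higher and 6400 (57.2%) lower, around a median of -0.03.

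**Figure D1:**
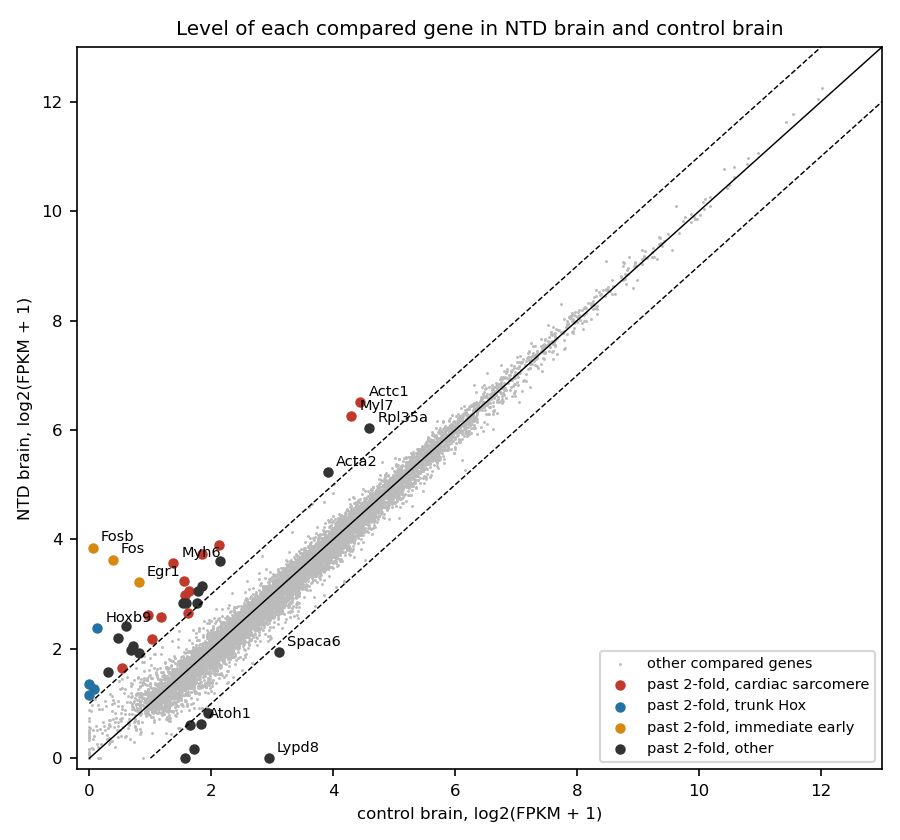
Level of each compared gene in control brain (horizontal axis) and NTD brain (vertical axis), both as log2(FPKM + 1), 1 point per gene. The solid line marks equal levels and the dashed lines 2-fold; the 34 genes above the upper dashed line and the 7 below the lower one are coloured by list, and few of them lie at high levels.

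Promoters are shown for the 2 leading immediate early genes and the 3 leading cardiac sarcomere genes. Sequences are RefSeq promoter windows of GRCm38.p6 on the strand of the gene, without the bases that GENCODE places in an exon of the gene. Capitals mark matches to TGACG, the first letters of the cyclic AMP response element TGACGTCA, to the TATA box TATAAA, and to the CArG box, the binding motif of serum response factor. The windows lie at chr7:19310052-19310295 (minus strand) for Fosb, chr12:85473640-85473889 (plus) for Fos, chr14:54966642-54966857 (minus) for Myh6, chr2:114052888-114053125 (minus) for Actc1 and chr11:5898783-5899032 (minus) for Myl7.
Fosb: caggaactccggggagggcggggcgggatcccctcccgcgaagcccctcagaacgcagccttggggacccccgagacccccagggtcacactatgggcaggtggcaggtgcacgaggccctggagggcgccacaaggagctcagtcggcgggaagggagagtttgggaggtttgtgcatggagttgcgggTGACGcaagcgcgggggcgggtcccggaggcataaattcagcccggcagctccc
Fos: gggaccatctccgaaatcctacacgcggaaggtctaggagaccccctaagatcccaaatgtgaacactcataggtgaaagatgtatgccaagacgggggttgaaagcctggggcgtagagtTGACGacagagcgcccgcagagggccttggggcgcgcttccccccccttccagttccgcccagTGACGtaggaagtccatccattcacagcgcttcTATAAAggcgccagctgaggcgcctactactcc
Myh6: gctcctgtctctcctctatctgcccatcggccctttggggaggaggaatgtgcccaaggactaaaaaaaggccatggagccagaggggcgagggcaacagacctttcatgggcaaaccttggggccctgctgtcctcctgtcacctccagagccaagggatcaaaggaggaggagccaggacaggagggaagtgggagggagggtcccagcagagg
Actc1: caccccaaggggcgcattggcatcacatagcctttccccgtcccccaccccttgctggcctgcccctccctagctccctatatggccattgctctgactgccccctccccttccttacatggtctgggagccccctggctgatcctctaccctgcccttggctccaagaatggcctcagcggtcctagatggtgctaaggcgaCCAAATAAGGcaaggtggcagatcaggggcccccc
Myl7: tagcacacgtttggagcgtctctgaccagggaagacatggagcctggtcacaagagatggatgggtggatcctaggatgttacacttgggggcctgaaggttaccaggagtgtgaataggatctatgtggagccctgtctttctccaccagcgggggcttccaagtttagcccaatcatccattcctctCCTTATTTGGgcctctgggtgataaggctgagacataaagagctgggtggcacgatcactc
In both Fos family windows a TGACG match lay close to the start site, its first base 60 bases before the RefSeq start in Fosb and 66 bases before it in Fos. TGACG was searched for only after these windows had been seen, and 20.8% of all windows hold it. The CArG match began 47 bases before the start in Actc1 and 61 bases before it in Myl7. The printed bases of Myh6 hold none of the 3 motifs. Of the 13 higher cardiac sarcomere genes, all with a window, 3 held a CArG box.

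Of the 34 higher genes, 23 had a RefSeq window. On either strand of the 300-base windows (250 before the start and 50 from it), 4 of the 23 (17.4%) held a CArG box, namely Actc1, Myl7, Myl3 and Acta1, while 1.63% of all 32851 windows held one. The TATA box was in 7 (30.4%, against 13.6% of all windows), the GATA motif AGATAA in 5 (21.7%, against 11.2%) and the MEF2 motif in 1, Mybpc3 (4.35%, against 3.19%). In Myh6 and Actc1 the TATAAA match began after the RefSeq start, by 1 and 33 bases. TGACG was in 5 (21.7%), a share like the 20.8% of all windows; it lies within TGACGTCA. The full element TGACGTCA and the AP-1 motif TGANTCA were in none of the 23, against 1.79% and 7.81% of all windows, and neither was the p53 motif (1.93%). These are matches of letters in a short window and were not tested.

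Immediate early genes are transcribed within minutes of a stimulus without new protein synthesis, and Fos and Fosb encode partners of Jun in the AP-1 transcription factor. Fosb was counted with 4 and 1378 reads in brain and 53 and 1316 in spine. Per length these were 0.0379 and 13.4 FPKM in brain and 0.522 and 12.7 FPKM in spine. Both NTD libraries were high and both control libraries low, and the fold in brain was 354 (138 to 1300). Fos stood at 0.302 and 11.4 FPKM in brain and 1.67 and 12.4 FPKM in spine, a fold in brain of 37.7 (21.4 to 73.6). Egr1, a zinc finger factor, stood at 0.752 and 8.33 FPKM in brain and 1.08 and 8.61 FPKM in spine, a fold in brain of 11.1 (8.44 to 14.8). For these genes the NTD libraries of the 2 tissues lay close together.

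The rest of the immediate early list differed far less. Of its 26 members past the filter 19 (73.1%) were higher and 7 lower, with a median of 0.17 over the list and 3 members past 2-fold, the ones just named. Jun, the partner of Fos in AP-1, was just under the threshold at 11.6 and 24.0 FPKM, a fold of 2.08 (1.89 to 2.29). Ccn1, a secreted matrix protein of the same response, was also just under it, at 15.2 and 31.1 FPKM. Srf, which encodes serum response factor itself, stood at 23.2 and 27.9 FPKM. Ccn2, a relative of Ccn1, was the lowest member at -0.56, with 6.80 and 4.29 FPKM, so members of 1 list went both ways. Among 16 MAP kinase feedback genes, which damp the pathway upstream of many immediate early genes, 10 were higher and 6 lower with a median of 0.05. The highest was Dusp1, a phosphatase, at 4.98 and 8.38 FPKM, a fold of 1.68 (1.45 to 1.96).

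The contractile genes of heart muscle formed the largest group. Of 22 cardiac sarcomere genes 21 passed the filter and all 21 were higher in NTD brain, with a median of 1.16 against -0.03 over all compared genes; 20 had a counting interval above 1, as had 16.8% of all compared genes with whole reads. Actc1, cardiac actin, had 568 and 2399 reads in the brain libraries. Its levels were 20.8 and 90.0 FPKM in brain and 306.6 and 210.6 FPKM in spine. Myl7, the atrial regulatory light chain, stood at 18.5 and 75.3 FPKM in brain and 258.7 and 173.1 FPKM in spine. Both genes ordered the libraries the same way, from control brain through NTD brain and NTD spine to control spine.

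Myh6, the alpha myosin heavy chain, stood at 1.59 and 10.8 FPKM in brain and 46.4 and 33.2 FPKM in spine, a fold in brain of 6.78 (5.798 to 7.98). Myl2, the ventricular regulatory light chain, stood at 2.58 and 12.2 FPKM in brain and 47.4 and 26.9 FPKM in spine. Tnnc1, which encodes the calcium-binding subunit of troponin, stood at 3.35 and 13.9 FPKM in brain and 51.2 and 28.9 FPKM in spine. The other called members were Myl4, Ankrd1, Mybpc3, Myl3, Tnnt2, Tnni1, Csrp3 and Myh7, at log2 ratios from 1.69 down to 1.03. The lowest member was Tpm1, a tropomyosin that non-muscle cells also make, at 53.6 and 55.8 FPKM in the brain libraries. Reads of Myh6 and Myh7, and of Actc1, Acta1 and Acta2, can be shared between near-identical copies, and Myh6, Myl2, Myl3, Myl4 and Myh7 overlap an exon on the other strand, so the split between such genes is uncertain.

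**Figure D2:**
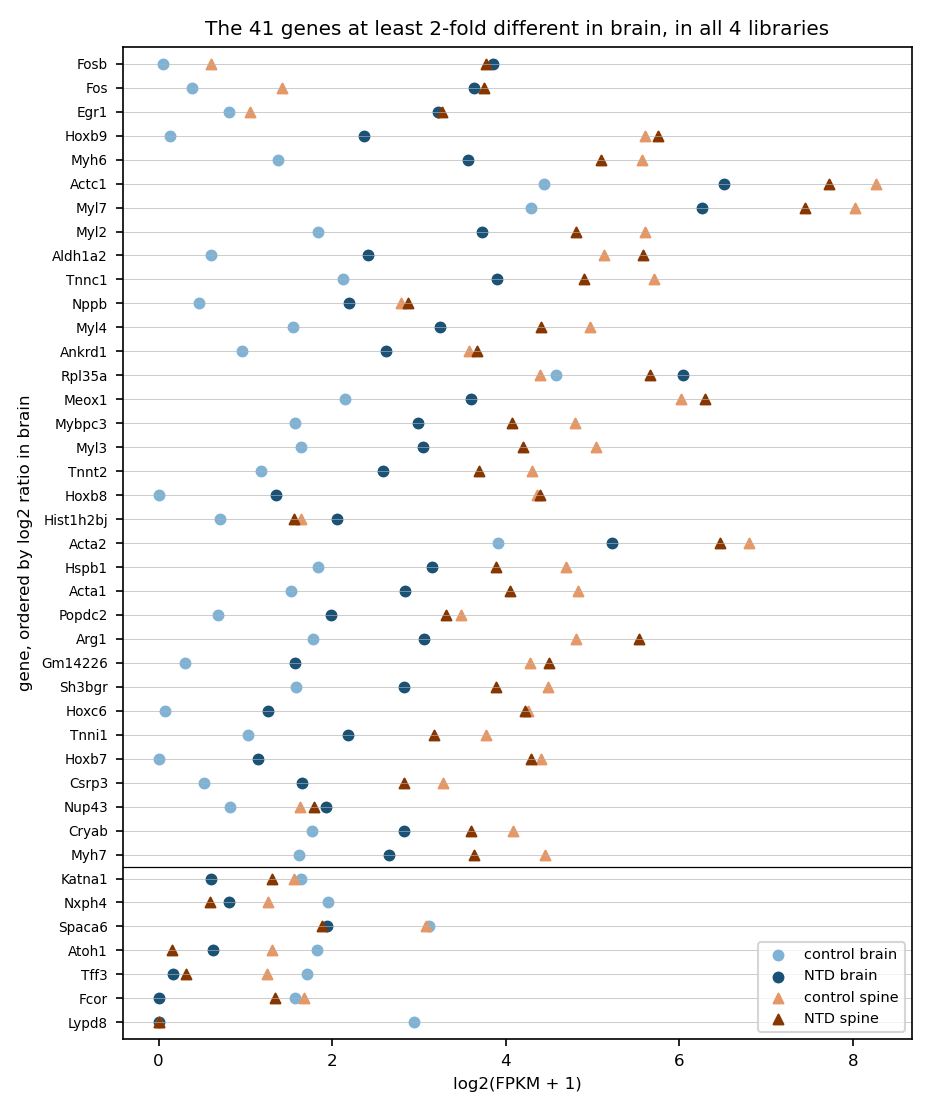
The 41 genes at least 2-fold different between the brain libraries, ordered by their log2 ratio in brain, with the level in each of the 4 libraries as log2(FPKM + 1) on the horizontal axis; circles are brain, triangles spine, pale symbols control and dark symbols NTD. For 28 of the 34 higher genes NTD brain lies below both spine libraries, and for Fosb, Fos and Egr1 the dark symbols lie together.

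Other muscle and heart genes were higher as well. Acta2, smooth muscle actin, stood at 14.1 and 36.5 FPKM in the brain libraries, and Acta1, skeletal actin, at 1.89 and 6.17 FPKM. Nppb, a natriuretic peptide of stretched heart muscle, had 5 reads in control brain and 46 in NTD brain, a fold of 9.45 (3.77 to 30.5). Popdc2, a membrane protein of striated muscle, Sh3bgr, and the small heat shock genes Hspb1 and Cryab, which heart muscle makes in quantity, were also past 2-fold, at log2 ratios of 1.31, 1.25, 1.31 and 1.07. Popdc2 overlaps an exon of Gm21987 on its own strand and Cryab one of Hspb2 on the other. Of 15 cardiac transcription factors past the filter, 11 were higher and 4 lower, with a median of 0.26 and none past 2-fold on the FPKM + 1 scale. Gata4, a zinc finger factor of the early heart, stood at 0.439 and 1.74 FPKM, a fold of 3.97 (2.62 to 6.19), and Gata6 at 0.327 and 1.02 FPKM. Nkx2-5, the homeobox gene of heart progenitors, stood at 0.860 and 2.37 FPKM. Hand1 and Hand2, which branchial arches express too, stood at folds of 1.41 (1.05 to 1.89) and 1.45 (1.08 to 1.97). Tbx2 was the lowest, at 7.75 and 6.08 FPKM.

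Trunk Hox genes, which mark levels from the neck to the tail, were nearly silent in control brain and low in NTD brain. Of 22 such genes 21 passed the filter, which they did through the spine libraries, and 20 were higher in NTD brain, with a median of 0.53 and 4 past 2-fold. Hoxb9 had 4 and 177 reads in brain and 1989 and 2262 in spine, or 0.0919 and 4.18 FPKM and 47.5 and 52.9 FPKM. Hoxb8 had 0 reads in control brain and 67 in NTD brain, at least 22.9-fold higher with a floor of 3 reads in the library at 0. Hoxb7 had 0 and 31 reads, at least 10.6-fold higher, and Hoxc6 had 2 and 55 reads. Hoxa6, just under the threshold, stood at 0.0677 and 1.11 FPKM. The exception was Hoxa11, a gene of the lumbar and sacral trunk, with 0 reads in both. Summed over the list, the levels were 1.64 and 18.4 FPKM in brain and 284.8 and 302.1 FPKM in spine, with 10 of 22 genes at 0 in control brain and 2 in NTD brain.

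Hox genes of the hindbrain were mixed. Of 11 members 8 were higher and 3 lower, with a median of 0.26. Hoxb4, of the posterior hindbrain, stood at 0.968 and 1.82 FPKM. Hoxb1, of a single hindbrain segment, was the lowest at 3.23 and 2.17 FPKM, and Hoxa2, the gene of the list that reaches furthest forward, stood at 3.86 and 4.28 FPKM.

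Genes of somites and nearby mesoderm were called as well. Aldh1a2, which makes retinoic acid in trunk mesoderm, had 20 reads in control brain and 162 in NTD brain, or 0.522 and 4.34 FPKM, against 34.0 and 46.8 FPKM in spine. Meox1, a somite homeobox gene, stood at 3.42 and 11.1 FPKM in the brain libraries and 63.6 and 77.3 FPKM in the spine libraries. For both, NTD brain lay between control brain and the spine libraries. Over the somite and skeletal muscle list 14 of 23 members were higher and 9 lower, with a median of 0.06, which was -0.03 when the filter used the mean of the brain libraries alone. Arg1, an arginine-degrading enzyme, stood at 2.44 and 7.36 FPKM in brain and 27.0 and 45.3 FPKM in spine.

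In bulk tissue, more cells of a type and more RNA per cell cannot be told apart, so the content of other tissues in each library is given beside these results. Among list members at least 2-fold apart between the control tissues and lower in the brain, the excess of NTD brain over control brain was a median of 19.8% of the control spine level for 19 cardiac sarcomere genes, from 7.86% (Tnni3) to 38.5% (Ankrd1). For 21 trunk Hox genes the median was 4.91%, from 0% (Hoxa11) to 9.90% (Hoxa6). It was 6.42% for 13 somite and skeletal muscle genes, 8.61% for 8 tail bud genes and 4.28% for 10 limb and lateral plate genes. The last 2 lists did not share this excess as a whole. Of 19 tail bud genes past the filter 8 were higher and 11 lower, with a median of -0.04. Of 24 limb and lateral plate genes 14 were higher and 10 lower, with a median of 0.06. Their summed levels in brain were 119 and 101.4 FPKM for tail bud and 138.9 and 125.2 FPKM for limb and lateral plate. For 8 markers of endoderm, liver and yolk sac it was -0.17%, from -1.18% (Rbp4) to 2.01% (Apom), with 3 of the 8 higher in NTD brain. This scale uses the control brain library in both of its terms.

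The summed level of all cardiac sarcomere genes was 117 and 312.6 FPKM in brain and 1002.3 and 686.5 FPKM in spine. The endoderm, liver and yolk sac markers summed to 40.5 and 40.99 FPKM in brain, with 10 of 27 at 0 reads in control brain and 9 in NTD brain. Afp, the alpha-fetoprotein of yolk sac and liver, had 0 and 7 reads. Primitive erythroid markers summed to 4569 and 4906 FPKM, with the embryonic globin Hbb-y at 1434 and 1428 FPKM. Endothelial markers summed to 175 and 156.2 FPKM, those of surface ectoderm to 192.5 and 211.7, and those of macrophages and other blood to 24.9 and 19.3. Among the members of these 5 lists past the filter, 3 of 21 for macrophages and other blood, none was past 2-fold. Under the filter the members were mixed. C1qb, a complement gene of macrophages, had 21 and 4 reads, Lyz2, their lysozyme, 24 and 5, and Ppbp, a platelet chemokine, 19 and 2. Others of that list differed little, with 49 and 44 reads for Csf1r, 39 and 37 for Cx3cr1 and 44 and 42 for Mrc1. Cd14 went the other way, with 6 and 16 reads. What part tissue content had in the called genes was not tested.

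The same genes did not go one way in the spine. Of the 34 genes higher in NTD brain, 13 had a log2 ratio above 0 between the spine libraries and 21 one below 0; over all compared genes the shares there were 42.1% higher and 57.9% lower. Fosb, Fos, Egr1 and Rpl35a were at least 2-fold higher in the spine as well, where 0.0894% of compared genes were, and Atoh1 and Spaca6 were at least 2-fold lower there, as were 0.259% of compared genes. The cardiac sarcomere list had a median of -0.57 in the spine, with 20 of 21 members lower, while its brain median was 1.16. In the spine libraries, endoderm, liver and yolk sac markers were lower as well, with a summed level of 223.5 and 99.8 FPKM, a median of -1.24 and 8 of 11 at least 2-fold lower. Primitive erythroid markers there summed to 7099 and 3726 FPKM, with a median of -0.66 and 21 of 22 lower. Their part in the spine values was not tested. The 2 comparisons share no library, but their libraries came from the same groups, so the spine is no replicate of the brain comparison. No gene was beyond 2-fold in opposite directions.

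**Figure D3:**
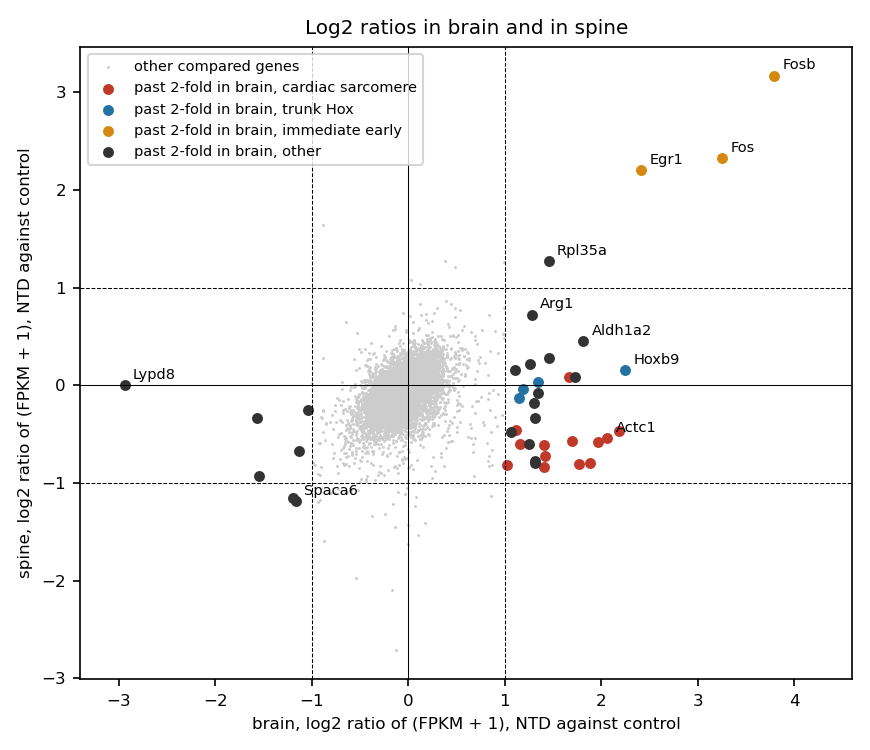
Log2 ratio of (FPKM + 1), NTD against control, in brain (horizontal axis) and spine (vertical axis), 1 point per compared gene, with dashed lines at 2-fold. Cardiac sarcomere genes (red) lie to the right and mostly below 0 in spine, trunk Hox genes (blue) lie to the right near 0, and Fosb, Fos and Egr1 (orange) lie at the upper right.

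Some called genes belonged to none of these families. Rpl35a, a protein of the large ribosomal subunit, stood at 22.97 and 64.7 FPKM in brain and 19.9 and 49.5 FPKM in spine, a fold in brain of 2.82 (2.65 to 2.998). It was the 1 member of the ribosomal protein list past 2-fold, and reads of ribosomal protein genes can be shared with their processed copies. Nup43, a nuclear pore subunit, stood at 0.762 and 2.80 FPKM in the brain libraries, and the histone gene Hist1h2bj had 5 and 24 reads. An unnamed gene model was also among the 34. The calls that lie closest to the threshold were Myh7, Cryab, Nup43, Csrp3 and Hoxb7 inside it, and Gm7879, Jun, Ccn1, Hoxa6 and Hist1h3i outside it, from 0.97 (Hist1h3i) to 1.15 (Hoxb7).

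Of the 7 lower genes 5 had 20 or fewer reads in NTD brain, the library in which the call requires a low level. In control brain the 7 had from 13 reads (Fcor) to 913 (Spaca6). Lypd8, a protein of the gut epithelium, had 145 reads in control brain and 0 in each of the other 3 libraries, at least 47.1-fold lower in NTD brain. Here 1 library, control brain, stood apart from the rest. Tff3, a trefoil peptide of epithelia, had 19 reads in control brain and 1 in NTD brain, against 11 and 2 in the spine libraries. Fcor had 13 and 0 reads. Spaca6, a gene known for sperm and egg fusion, was the exception in depth, with 913 and 331 reads in brain and 854 and 316 in spine, and both NTD libraries were low. An exon of Spaca6 overlaps the microRNA gene Mir125a on the same strand. Nxph4, a neurexin ligand, had 81 and 21 reads in the brain libraries, and Katna1, a subunit of the microtubule-severing protein katanin, had 79 and 19. Just outside the threshold were Pxmp2, Cpsf4l, Tstd1 and Sst. Sst, the neuropeptide somatostatin, stood at 17.1 and 8.25 FPKM.

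Proneural genes, which commit progenitors to become neurons, and their Id inhibitors were the list with the lowest median. Of 19 members past the filter 18 (94.7%) were lower in NTD brain, with a median of -0.59, and 17 had a counting interval below 1, as had 27.4% of all compared genes with whole reads. Atoh1, which makes neurons of the dorsal hindbrain, had 91 and 19 reads in brain and 51 and 4 in spine. Its fold in brain was 4.66 lower (2.82 to 8.10) and it was the 1 member past 2-fold. Neurod1, which acts later as neurons differentiate, stood at 9.64 and 5.16 FPKM in brain and 3.38 and 1.88 FPKM in spine. For both genes each NTD library lay below the control library of its tissue. Id1 and Id3, which inhibit proneural factors, stood at 97.5 and 80.7 FPKM and at 137.8 and 118.4 FPKM. The exception was Id2, another such inhibitor, at 65.9 and 74.6 FPKM.

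Genes of neurons themselves were lower too. Of 33 genes of the neuronal cytoskeleton and axon 30 (90.9%) were lower, with a median of -0.32, none past 2-fold and 27 with a counting interval below 1. Nefm, a neurofilament subunit, stood at 15.4 and 7.71 FPKM in brain and 10.2 and 3.97 FPKM in spine. Tubb3, the tubulin of young neurons, stood at 96.9 and 63.8 FPKM in brain and 47.97 and 22.3 FPKM in spine. Stmn3, a microtubule regulator, stood at 13.3 and 6.95 FPKM in the brain libraries, and Map1b, a microtubule-associated protein of growing axons, at 34.3 and 24.4 FPKM. Gap43, a growth cone protein, differed less, at 43.1 and 36.8 FPKM, and Nrcam, a cell adhesion molecule, was the highest at 1.68 and 1.80 FPKM. Transcription factors of postmitotic neurons were lower in 17 of 21, with a median of -0.14.

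Progenitor and patterning genes were lower by less. Of 23 neuroepithelial progenitor genes 20 (87%) were lower with a median of -0.22, where 57.2% of all compared genes were lower. Hes5, a Notch effector that holds progenitors back from differentiating, was the lowest at 6.64 and 3.38 FPKM, a fold of 1.96 lower (1.48 to 2.62). Fabp7, a fatty acid carrier of radial glia, stood at 36.2 and 27.0 FPKM, and the intermediate filament gene Vim at 162.8 and 139.6 FPKM. Lin28a, an RNA-binding protein of early embryonic cells, was the highest at 90.5 and 95.7 FPKM. In the Notch pathway 19 of 24 genes were lower, with a median of -0.25, among them Rbpj, the pathway's transcription factor, at 5.81 and 4.08 FPKM and Lfng, which modifies the receptor, at 25.3 and 18.8 FPKM. Hey2, a target gene that the heart also uses, was the highest of the list at 1.91 and 2.48 FPKM.

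The dorsal neural tube, whose folds meet at closure, had 23 of 24 genes (95.8%) lower and a median of -0.35. Msx1, a BMP target of the roof plate, stood at 21.02 and 13.2 FPKM, Olig3, of dorsal progenitors, at 8.73 and 5.39, and Zic1 at 28.9 and 22.7. Zic2, needed for closure in mice, differed little at 25.8 and 25.4 FPKM, and Bambi, a BMP pseudoreceptor, was the 1 higher member. Among genes of the ventral neural tube and hedgehog signalling 22 of 27 (81.5%) were lower, with a median of -0.12. Shh, the ligand of floor plate and notochord, stood at 12.8 and 8.68 FPKM, a fold of 1.48 lower (1.30 to 1.68). Gli1, a transcription factor that the pathway switches on, was the highest at 10.1 and 12.5 FPKM, a fold of 1.24 higher (1.13 to 1.36). Its direction was thus opposite to that of Shh, but it is the extreme of the list. Under the filter, Nkx2-2 and Hhip of the same list had 62 and 33 reads and 124 and 122 reads.

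Over all compared genes 57.2% were lower. Of 24 forebrain patterning genes 21 (87.5%) were lower with a median of -0.17. The highest and lowest were Fezf2 at 0.10 and Barhl2 at -0.49. At the border of midbrain and hindbrain 11 of 16 genes (68.8%) were lower with a median of -0.13. Cnpy1, an FGF signalling gene of that border, stood at 11.8 and 6.70 FPKM, En2, a homeobox gene, at 17.7 and 13.4, and Pax5, another, at 4.17 and 4.95. Of 13 hindbrain patterning genes 10 (76.9%) were lower, with a median of -0.16.

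**Figure D4:**
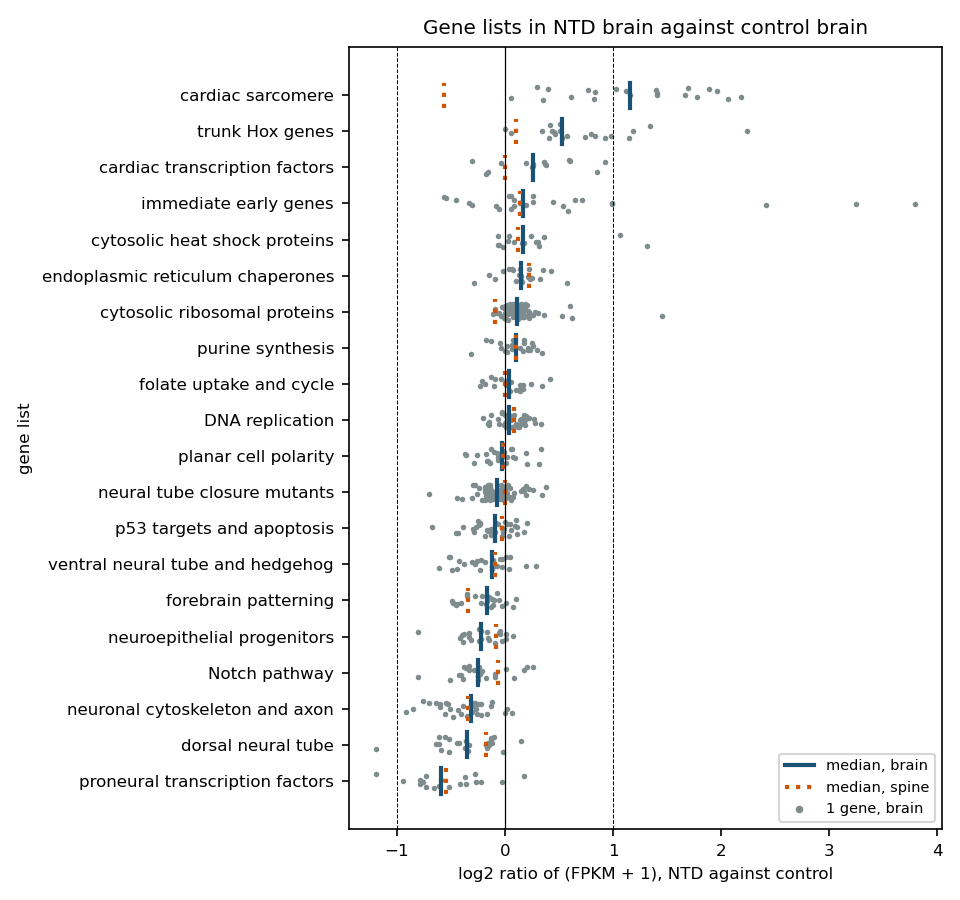
Log2 ratio of (FPKM + 1) in NTD brain against control brain for the members of 20 gene lists, 1 grey point per gene past the filter, with the brain median (solid bar) and the spine median (dotted bar); dashed lines mark 2-fold. Cardiac sarcomere genes have the highest brain median (1.16) of the lists drawn and proneural genes the lowest (-0.59); the medians of planar cell polarity and closure mutant genes, close to 0, change sign with an adjustment for GC content, the former also on rescaling.

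These small, broad differences ran with base composition. Across 11183 compared genes, Spearman's rho between the log2 ratio in brain and the GC content of the longest transcript was -0.39; genes are not independent replicates, and all points share the same 2 libraries. Medians fell from 0.07 in the decile of genes with the least GC to -0.16 in the decile with the most, where 80.1% of genes were lower. In the spine, with other libraries of the same groups, rho was -0.41. After adjustment within cells of like GC content and length, the median was -0.50 for proneural genes, -0.27 for the neuronal cytoskeleton, -0.24 for the dorsal neural tube, -0.12 for Notch, -0.11 for progenitors, -0.07 for forebrain and -0.04 for hedgehog genes, of which 13 were then above 0 and 14 below. It was -0.03 for genes of the border of midbrain and hindbrain, with 7 above 0 and 9 below, and -0.02 for hindbrain patterning, with 4 above and 9 below. The medians of the cardiac sarcomere and trunk Hox lists were 1.15 and 0.58 after it. What part base composition had in single genes was not tested.

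**Figure D5:**
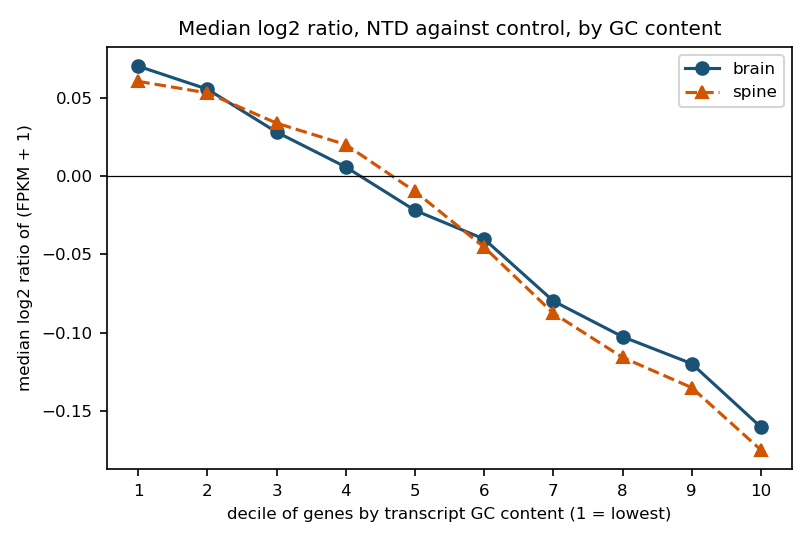
Median log2 ratio of (FPKM + 1), NTD against control, in deciles of the compared genes ordered by transcript GC content (1 is lowest), for brain (circles) and spine (triangles). Both lines run from above 0 in the lowest decile (0.07 in brain) to below 0 in the highest (-0.16 in brain).

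Genes of the folate pathway, which methotrexate and the diet bear on, lay close to equal in their median. Of 22 genes of folate uptake and the folate cycle 15 (68.2%) were higher and 7 (31.8%) lower. Over all compared genes these shares were 42.8% and 57.2%. The median was 0.04, or 0.11 when adjusted for GC content and length, and no member was past 2-fold. The counting interval lay above 1 for 9 and below 1 for 5. Of all compared genes with whole reads, the shares were 16.8% and 27.4%. Tyms, thymidylate synthase, stood at 17.4 and 18.8 FPKM. Atic and Gart, folate-dependent enzymes of purine synthesis, stood at 28.2 and 36.2 FPKM and at 42.6 and 47.2 FPKM, folds of 1.28 (1.23 to 1.34) and 1.11 (1.06 to 1.16). Fpgs, which adds glutamates that keep folate in the cell, was the highest at 10.5 and 14.4 FPKM, and Shmt2, a mitochondrial source of one-carbon units, the lowest at 52.0 and 44.1. Of 22 purine synthesis genes 17 (77.3%) were higher, with a median of 0.11. Impdh1, of guanine nucleotide synthesis, was the lowest at 14.0 and 11.1 FPKM.

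Genes that respond to DNA damage lay close to equal in their median. Of 37 p53 targets and apoptosis genes 11 (29.7%) were higher and 26 (70.3%) lower, with a median of -0.09 and none past 2-fold. Over all compared genes 42.8% were higher and 57.2% lower. Of 42 DNA damage repair genes 29 (69%) were higher and 13 (31%) lower, with a median of 0.05. Trp53, the gene of p53, stood at 61.3 and 62.1 FPKM. Cdkn1a, a cell cycle inhibitor that p53 switches on, had 99 and 95 reads, a fold of 0.985 (0.736 to 1.32). Ddit4, a stress-induced inhibitor of growth signalling, was the lowest at 32.6 and 20.03 FPKM, and Sesn1, another p53 target, the highest at 4.49 and 5.34. Of 47 DNA replication genes 35 (74.5%) were higher, with a median of 0.04. Pole2, a subunit of DNA polymerase epsilon, stood at 9.17 and 11.8 FPKM.

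Genes whose loss is known to leave the neural tube open also lay close to equal in their median. Of 69 such genes 20 were higher and 49 lower with a median of -0.07, which became 0.02 when adjusted for GC content and length. The counting interval lay below 1 for 34 of them and above 1 for 9, against 27.4% and 16.8% of all compared genes with whole reads. Nog, a BMP antagonist, was the lowest at 4.71 and 2.51 FPKM (135 and 70 reads), Zic5 stood at 7.62 and 5.34 FPKM, and Shroom3, which bends the neural plate by apical constriction, at 6.87 and 4.98. Grhl3, of the surface ectoderm at the closing folds, was the highest at 1.15 and 1.79 FPKM. The most abundant, Marcksl1, stood at 631.2 and 555.2 FPKM. In planar cell polarity, which narrows and lengthens the neural plate, 10 genes were higher and 18 lower, with a median of -0.03 that was above 0 after rescaling by the median ratio and after the GC adjustment. Vangl2, a core component, stood at 21.6 and 16.6 FPKM and Celsr2, an atypical cadherin, at 19.3 and 14.7.

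Protein folding and ribosome genes were slightly higher. Of 22 endoplasmic reticulum chaperones and folding factors 18 were higher with a median of 0.15. Hspa5, the main chaperone of that compartment, stood at 211.5 and 314.8 FPKM in brain and 200.7 and 306.5 FPKM in spine, a fold in brain of 1.49 (1.46 to 1.52). Hsp90b1 stood at 107.2 and 144 FPKM in brain and 105 and 159.1 FPKM in spine. For both, the NTD libraries lay above the control libraries. Of 76 cytosolic ribosomal protein genes 68 (89.5%) were higher in brain, with a median of 0.12, while 61 were lower in the spine.

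Among the 875 genes whose mean reached 50 FPKM, where counting error is small, 3 were at least 2-fold higher (Actc1, Myl7 and Acta2) and none lower. Next came Rpsa, a protein of the small ribosomal subunit, at 356.2 and 541.2 FPKM, Hspa5, Rpl26, Hmgb1, Npm1, Phb and Hsp90b1, at log2 ratios from 0.60 to 0.42. The lowest was Ckb, brain creatine kinase, at 70.9 and 37.4 FPKM in brain and 67.3 and 31.8 FPKM in spine, a fold in brain of 1.89 lower (1.79 to 2.01). It was followed by Rsrp1 (-0.65), Tubb3 (-0.60), Igdcc3 (-0.55), Cotl1, Psap, Tubb2b, Ldhb, Arl6ip4 and Ddx17, the last at -0.39. Tubb3 and Tubb2b are tubulins of neurons, and for Ckb and Tubb3 each NTD library lay below the control library of its tissue.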

How the data were processed

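RNA-seq of brain and spine of control and NTD embryos was used, 1 library per group, with groups taken from the sample titles. The authors deposited 1 table of FPKM values. Per the submitters' processing notes, the aligner was HISAT2 2.0.1 and the build mm10. For the counter, annotation, strand setting and filters: not given in the sources used here. Identifiers were matched to GENCODE M21 (28698 of 28765). The product of FPKM and union exon length moved in steps of 1 read, which gave each library's total and the reads per gene: 28298 genes (98.6%) were whole within 0.01 reads in all libraries. Of the compared genes 197 were not, and these have no fold.

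Compared were protein-coding genes of at least 300 bases whose mean was 1 FPKM or more, on log2(FPKM + 1). At or beyond 2-fold counted as a call. Folds have 95% exact conditional binomial intervals; against 0 reads they are bounds from a floor of 3 reads. The adjustment for GC content and length subtracted the median of each cell of a 10 by 10 grid. There is no p-value, as no group has replicates.

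The 50 gene lists and 7 marker lists, the genes to compare and the alternatives were chosen with earlier results of these data known. Named were all genes past 2-fold, the 5 nearest to it on each side, up to 3 members per list with the largest ratio and up to 3 with the highest level, each list's extremes, the 10 highest and lowest genes of at least 50 FPKM, and set markers and folate genes; some of these are not reported here. The search for TGACG was added after the promoter windows had been seen. Alternatives were other pseudocounts, filters and thresholds, rescaling, and the GC adjustment. Steps were tested on simulated reads. Python 3.11.15, numpy 2.4.6, pandas 2.3.3, scipy 1.17.1 and matplotlib 3.10.9 were used.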

Additional observations from a re-analysis of the deposited data

Results flagged for a closer look

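Opposite directions in the tissues drew attention to 17 genes that were at least 2-fold higher in NTD brain and whose counting interval in NTD spine against control spine lay below 1. The difference between the tissues was not tested, since each tissue has 1 library per condition, and the counting intervals cover counting error only. Of the 17, 12 are cardiac sarcomere genes. Over all compared genes with such an interval in the spine, it lay below 1 for 27.9% and above 1 for 18.5%. Another 13 genes past 2-fold in brain had a spine interval on the same side of 1, 9 of them higher and 4 lower. The difference between the brain and the spine log2 ratio was 2.25 for Myl3, 1.85 for Myh7, 2.58 for Tnnc1, 2.11 for Hspb1, 2.68 for Myl2, 2.09 for Acta1. It was 2.14 for Mybpc3, 2.01 for Tnnt2, 1.76 for Tnni1, 1.84 for Sh3bgr, 2.54 for Myl7, 2.26 for Myl4. It was 2.60 for Actc1, 1.55 for Cryab, 2.66 for Myh6, 1.58 for Csrp3 and 1.66 for Acta2. Over the whole cardiac sarcomere list the medians were 1.16 in brain and -0.57 in spine, which differ by 1.72. In spine, endoderm, liver and yolk sac markers were lower as well, with a summed level of 223.5 and 99.8 FPKM, a median of -1.24 and 8 of 11 at least 2-fold lower. Primitive erythroid markers there summed to 7099 and 3726 FPKM, with a median of -0.66 and 21 of 22 lower. Their part in the spine values was not tested.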

How the results depend on the processing

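No paired analysis was possible because the brain comparison has 1 library per group, which makes fewer than 2 pairs; a fit over both tissues with tissue as a block was not used here. The 34 higher and 7 lower genes became 105 and 48 with a pseudocount of 0.1 FPKM and 10 and 1 with a pseudocount of 5, so the counts rest on how low levels are weighed. They were 96 and 120 at a threshold of 1.5-fold and 6 and 1 at 4-fold. With all gene types and lengths they were 103 and 99. Without a filter 14 genes were lower, and with a filter of 5 FPKM 1 was. Leaving out genes at least 2-fold apart between the control tissues, 5 genes were higher. Of all calls in either direction, 82.9% were higher, but 68.6% with a pseudocount of 0.1, 72% without a filter and 96.7% with the filter of 5 FPKM. All 34 higher genes stayed past 2-fold after rescaling and after adjustment for GC content and length, as did 7 and 6 of the lower ones. All 41 had a counting interval that excluded 1 or a bound. Rescaling moved the median over all genes from -0.03 to -0.0039. The median of mitochondrially encoded genes, 0.08, was -0.0040 after the adjustment for GC content and length; the cause was not tested. Of the 26 lists whose median was at least 0.1 in size, all kept its sign under the pseudocounts, filters, rescaling and adjustment. Depth limits several calls: 5 of the 7 lower genes had 20 or fewer reads in NTD brain, and 7 of the 34 higher genes 10 or fewer in control brain. A call also requires a low level in that library, so these counts follow in part from the calls.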
